A study of Mus musculus with 5 samples.

Results

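The small leucine-rich proteoglycans examined here were 8 genes, taken by symbol from the 22609 genes in the RNA-sequencing table of mouse mammary glands: Dcn (decorin), Bgn (biglycan), Aspn (asporin), Fmod (fibromodulin), Lum (lumican), Prelp (prolargin), Omd (osteomodulin) and Ogn (osteoglycin, also called mimecan). All 8 were found, each in a single row. Glands of outbred mice, without their lymph nodes, were taken less than 12 hours after the females had given birth, and poly(A) RNA of 3 Nfib-null (KO) and 2 wild-type libraries was sequenced. The product of Nfib, nuclear factor I/B, binds DNA and regulates transcription, and the series asks how far it governs, with STAT5, the expression that pregnancy induces. The values were the authors' means per group in RPKM (read numbers corrected for gene length and sequencing depth), 1 value per gene and group, so no spread between libraries could be had and no difference was tested. One column carries the name of the wild-type libraries. The labels do not explain the name of the other, NfibFF-WC, which was taken as the Nfib-null group because it was the remaining one; the text below speaks of Nfib-null and wild-type glands on that footing. The labels do not say in which cells Nfib was deleted, or which driver was used.

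These proteins share a core of leucine-rich repeats that lies along collagen fibrils and sets their thickness and spacing. Class I (decorin, biglycan, asporin) and class II (fibromodulin, lumican, prolargin, osteomodulin) are told apart by their amino-terminal cysteines and by the sugar chains they carry, chondroitin or dermatan sulphate in decorin and biglycan and keratan sulphate in several class II members, and osteoglycin belongs to class III. In the mammary gland they are known as products of the stroma around ducts and alveoli, where decorin and biglycan also bind transforming growth factor beta and growth factor receptors.

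The targeted gene gives no check of the columns. The level of Nfib was 55.3 RPKM in Nfib-null glands and 33.7 RPKM in wild-type glands, a log2 difference of 0.30 after scaling of the columns. This is a whole-gene value that can hold reads from exons outside a deletion and from cells that keep the gene. All directions below therefore rest on the names of the columns and on how their decimals are written.

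All 8 genes had higher RPKM values as deposited in Nfib-null glands than in wild-type glands, but by very different amounts. Prelp, Dcn, Ogn and Lum were more than 2-fold higher after scaling of the columns, while Fmod, Bgn, Aspn and, with 1 RPKM added to each value, Omd were not. The summed level of the 8 genes was 837 RPKM in Nfib-null glands and 241 RPKM in wild-type glands, a ratio of 3.48 as deposited and 2.61 after scaling. Milk protein transcripts filled the libraries unequally: the 8 milk protein genes listed as markers took 26.2% of the summed RPKM in Nfib-null glands and 61.8% in wild-type glands. The proteoglycans made up 0.153% of all summed RPKM in Nfib-null glands and 0.0254% in wild-type glands. With those milk genes taken out of the sum the share was 0.207% in Nfib-null glands and 0.0665% in wild-type glands.

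To set the columns on a common scale, each was divided by its median-ratio factor, which brings the typical gene to a ratio of 1. The factors were 1.15 for Nfib-null glands and 0.867 for wild-type glands, so a ratio of deposited values is divided by 1.33. Differences below were taken on log2(scaled RPKM + 1), as Nfib-null minus wild type, and the call of higher or lower begins at 2-fold, that is at 1 on this scale. A mean of 1 RPKM or more was required, which 12511 genes met. Of these 6.95% were called higher and 5.97% lower, and of the 6168 genes that reached a mean of 10 RPKM 7.57% were called higher. All 8 proteoglycan genes passed the minimum mean of 1 RPKM; 4 of the 8 were called higher, 0 were called lower and 4 lay within 2-fold. Their median difference was 1.03, against 0.00 for all genes kept, whose quartiles lay at −0.37 and 0.39. At a limit of 1.5-fold 7 of the 8 were called higher, against 17.1% of all genes kept, and at 4-fold 0 of the 8, against 0.727%.

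**Figure D1:**
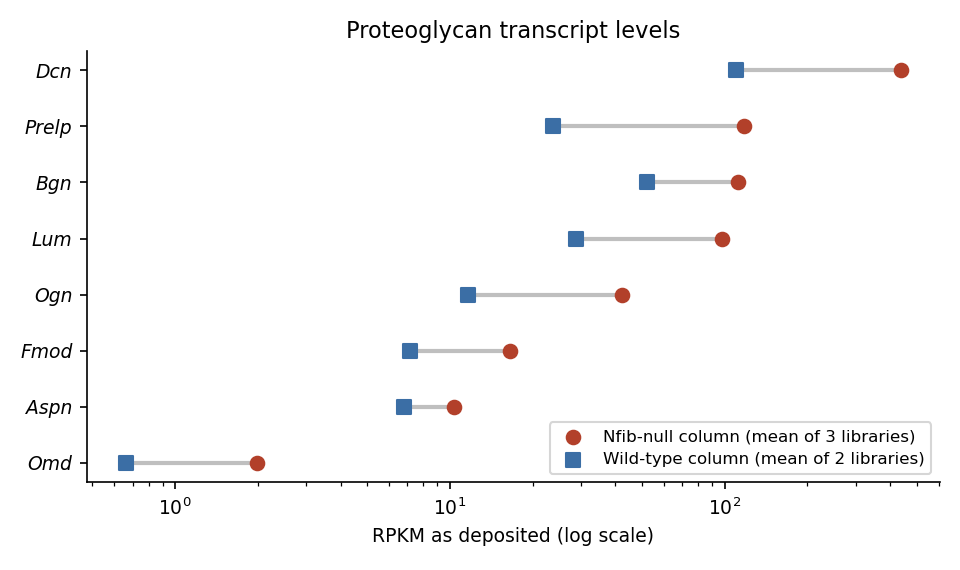
RPKM as deposited (horizontal, log scale) of the 8 genes in Nfib-null glands (circles) and wild-type glands (squares), the authors' means of 3 and 2 libraries, with a grey line joining the 2 values of a gene. Every circle lies to the right of its square, from Omd at 1.98 and 0.662 RPKM to Dcn at 438 and 110 RPKM, and the gap is widest for Prelp and narrowest for Aspn.

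Among class I members, decorin was the most abundant proteoglycan transcript in both columns. Dcn stood at 438 RPKM in Nfib-null glands, against 110 RPKM in wild-type glands, a ratio of 3.99 as deposited and a log2 difference of 1.58 after scaling. Only 1.81% of all genes kept had a difference as high. Biglycan, which is closest to decorin in structure and carries a pair of chains, was also higher, but by less than decorin. Bgn stood at 112 RPKM in Nfib-null glands and 52.2 RPKM in wild-type glands, a ratio of 2.15 as deposited, and its log2 difference of 0.68 was within 2-fold. The Dcn to Bgn ratio, which no scaling of whole columns can alter, was 3.91 in Nfib-null glands and 2.11 in wild-type glands. Asporin, named for a stretch of aspartate residues and known to bind transforming growth factor beta 1, differed least of the 8 genes. Aspn stood at 10.4 RPKM in Nfib-null glands and 6.78 RPKM in wild-type glands, with a log2 difference of 0.18, and 37.3% of all genes kept had a difference as high.

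Among class II members, prolargin had the largest difference of the 8 genes. Prelp, whose protein has a basic amino-terminal end that binds heparin and heparan sulphate, stood at 118 RPKM in Nfib-null glands and 23.8 RPKM in wild-type glands, a ratio of 4.95 as deposited and a log2 difference of 1.86. Only 124 of the 12511 genes kept (0.991%) had a difference as high. Prelp was the second most abundant of the 8 transcripts in Nfib-null glands and the fourth in wild-type glands, where Bgn and Lum stood above it. Lumican, a keratan sulphate proteoglycan best known from the cornea, came next in this class. Lum stood at 98.0 RPKM in Nfib-null glands and 28.7 RPKM in wild-type glands, with a log2 difference of 1.33.

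Fibromodulin, which shares a binding region on collagen I with lumican, was also higher, but by less than lumican. Fmod stood at 16.5 RPKM in Nfib-null glands and 7.17 RPKM in wild-type glands, a log2 difference of 0.72, and the Lum to Fmod ratio was 5.95 in Nfib-null glands and 4.01 in wild-type glands. The Prelp to Fmod ratio, between neighbouring genes on chromosome 1, was 7.15 in Nfib-null glands and 3.32 in wild-type glands. Osteomodulin, mainly known from bone and tooth, was the rarest of the 8. Omd stood at 1.98 RPKM in Nfib-null glands and 0.662 RPKM in wild-type glands. The scaled ratio of Omd was 2.25 without a pseudocount, but its log2 difference with 1 RPKM added was 0.62, so whether it passed 2-fold rested on the pseudocount. Depth, estimated from the smallest steps between low values, put about 270 reads behind the Nfib-null mean of Omd, counted over the 2 libraries whose step was clear, and about 50 behind its wild-type mean.

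Osteoglycin, the class III member, stood with the larger differences. Ogn stood at 42.5 RPKM in Nfib-null glands and 11.6 RPKM in wild-type glands, a ratio of 3.66 as deposited and a log2 difference of 1.40. Neither class I nor class II was uniform: class I held both Dcn and Aspn and class II both Prelp and Omd. The summed RPKM was 3.32 times higher in Nfib-null glands for class I and 3.88 times for class II as deposited.

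**Figure D2:**
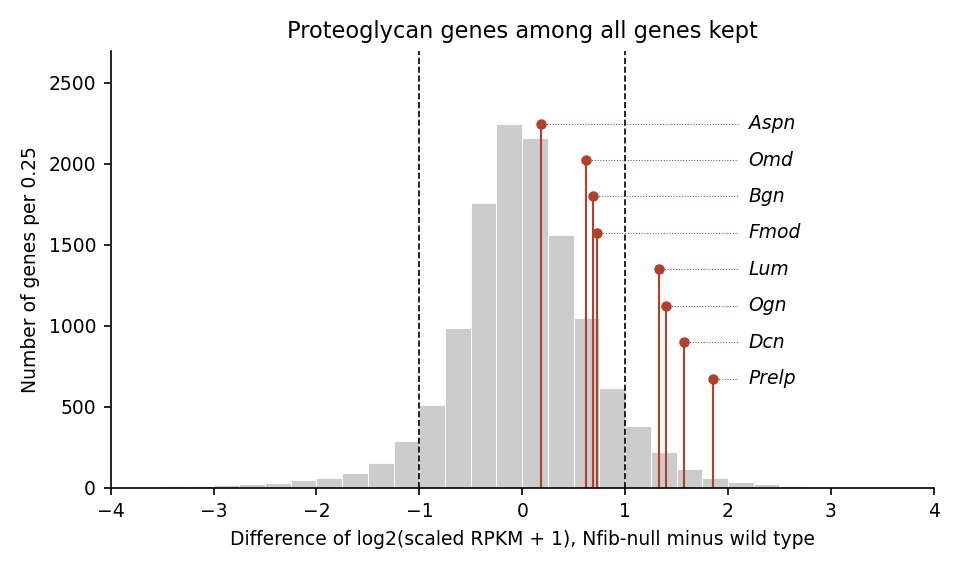
Number of genes (vertical) by log2 difference between Nfib-null and wild-type glands (scaled RPKM + 1; horizontal, drawn from −4 to 4), for the 12511 genes kept, with the 8 proteoglycan genes as red lines whose height has no meaning and dashed lines at 2-fold. Prelp, Dcn, Ogn and Lum lie beyond the upper 2-fold line and Fmod, Bgn, Omd and Aspn between 0 and that line.

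The make-up of the family differed along with its amount. Decorin held 52.3% of the summed RPKM of the 8 genes in Nfib-null glands and 45.6% in wild-type glands, and prolargin 14.1% in Nfib-null and 9.88% in wild-type glands. Biglycan made up 13.4% in Nfib-null glands and 21.7% in wild-type glands, and asporin 1.24% and 2.82%. Lumican, at 11.7% and 11.9%, and osteoglycin, at 5.07% and 4.82%, held nearly the same share in both columns. Without decorin in the sum, biglycan was 28.1% of the remainder in Nfib-null glands and 39.9% in wild-type glands, and prolargin 29.5% and 18.2%. Apart from Prelp, the order of the 8 levels was the same in both columns, with Ogn, Fmod, Aspn and Omd in the lower places. The range between Dcn and Omd was 221-fold in Nfib-null glands and 166-fold in wild-type glands.

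**Figure D3:**
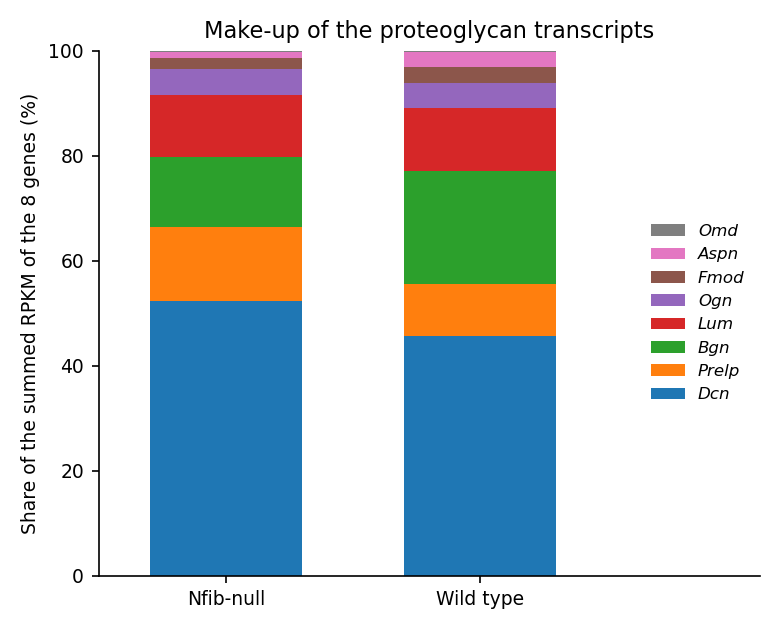
Share of each gene in the summed RPKM of the 8 genes (vertical, %), in Nfib-null glands (left bar) and wild-type glands (right bar). The Dcn and Prelp segments are larger and the Bgn and Aspn segments smaller in the Nfib-null bar.

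The median difference of the 8 genes lay below that of the fibroblast markers, and their 2-fold calls depended on the scaling of the columns. Of 15 fibroblast markers, none of them a proteoglycan of this family, 12 were called higher and 0 lower. The shares over all genes kept were 6.95% higher and 5.97% lower. The markers had a median of 1.45, against 1.03 for the 8 proteoglycan genes. The summed level of the markers was 1558 RPKM in Nfib-null glands and 420 RPKM in wild-type glands, with none listed at 0. In whole-gland RNA, fewer cells of a type and less RNA per cell cannot be told apart. When the columns were scaled so that the median fibroblast marker did not differ, Dcn (0.03), Prelp (0.34), Ogn (−0.086), Lum (−0.19) and Omd (−0.20) lay near 0, while Fmod (−0.70), Bgn (−0.85) and Aspn (−1.20) were below it. With that scaling 0 of the 8 genes were called higher, against 0.336% of all genes kept, and only Aspn was called lower, against 68.7%. With scaling to 10 luminal epithelial markers, 1 of the 8 was called higher, Prelp at 1.04, against 1.41% of all genes kept, and Fmod (−0.047), Bgn (−0.15) and Aspn (−0.57) lay below 0. With values as deposited 6 of the 8 were called higher, against 14.4%, and Omd and Aspn remained within 2-fold.

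**Figure D4:**
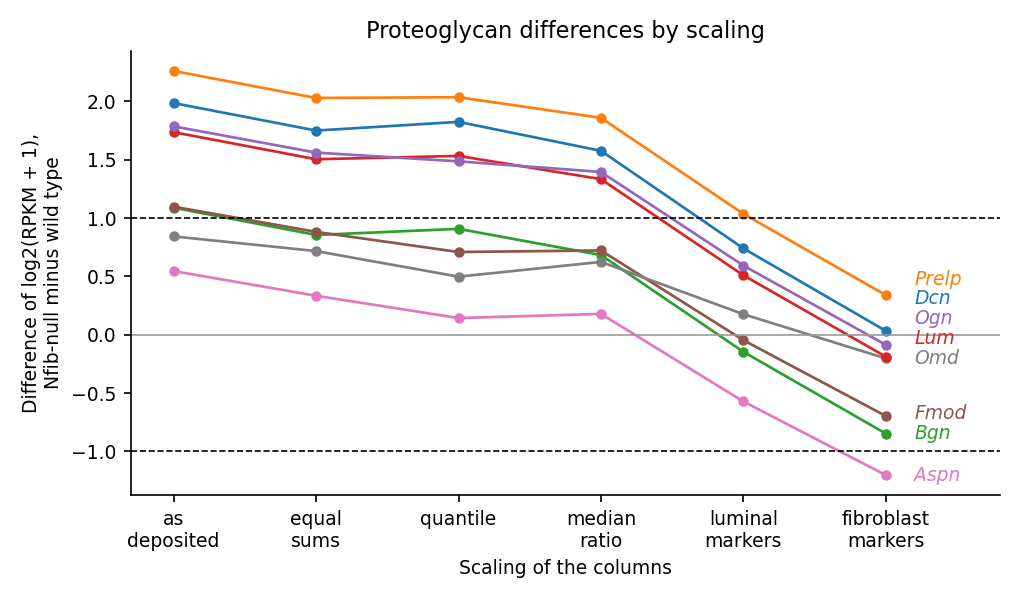
Difference of log2(RPKM + 1), Nfib-null minus wild type (vertical), for each of the 8 genes under 6 scalings of the columns (horizontal), with dashed lines at 2-fold. The genes move down together when fibroblast markers set the scale, where Dcn reaches 0.03 and Aspn −1.20.

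Markers of some other cell types differed as well. The counts below stand against 6.95% of all genes kept called higher and 5.97% called lower. All 10 white adipocyte markers were called higher, with a summed level of 13780 RPKM in Nfib-null glands and 2737 RPKM in wild-type glands, and 8 of 10 macrophage markers found were called higher, at 767 RPKM in Nfib-null and 230 RPKM in wild-type glands. Among 10 luminal markers 4 were called higher and 1 lower, with 2142 RPKM in Nfib-null glands and 1477 RPKM in wild-type glands. None of the 10 basal, 10 endothelial or 7 pericyte markers was called in either direction. At the shares of all genes kept, lists of this size would hold few calls. No marker of these 6 lists was at 0 in either column. Among 10 lymphocyte markers 1 was called higher and 6 lower, and all 8 milk protein genes were called lower. Of the muscle markers kept 1 was called higher and 2 lower, out of 4, and of 5 nerve markers kept 1 was called higher. The part of these cell types in the proteoglycan values was not tested. Osteomodulin and asporin are also made in bone, cartilage and tendon, and of 12 markers of those tissues only Col9a1 and Mkx passed the minimum mean. Ibsp, a bone protein gene, was listed at 0 in both columns, and Bglap, Sp7, Matn3 and Tnmd were listed at 0 in wild-type glands and below 0.25 RPKM in Nfib-null glands. Col9a1, a cartilage collagen gene, stood at 83.5 RPKM in Nfib-null glands and 55.6 RPKM in wild-type glands, unlike Col2a1, the main cartilage collagen gene, at 0.0194 and 0.00781 RPKM. Dmp1, a bone and tooth matrix gene, stood at 1.04 RPKM in Nfib-null glands and 0.0097 RPKM in wild-type glands, and Scx, a tendon transcription factor gene, at 0.939 and 0.565 RPKM. Ibsp, Bglap, Sp7, Matn3, Tnmd, Col2a1, Dmp1 and Scx were picked out with their values in view.

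Of 10 further family genes 4 passed the minimum mean, and of these 1 was called higher and 0 lower. A list of 4 genes is too short to set against the 6.95% higher and 5.97% lower of all genes kept. Chadl, a chondroadherin-like gene, stood at 5.60 RPKM in Nfib-null glands and 0.839 RPKM in wild-type glands, with a log2 difference of 1.57. Podn (podocan) stood at 12.5 RPKM in Nfib-null glands and 5.06 RPKM in wild-type glands, with a difference of 0.79 that was within 2-fold.

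The family lies in clusters, and genes of a cluster differed by unequal amounts. In the RefSeq gene order on GRCm38.p6, Dcn and Lum are followed on chromosome 10 by Kera (keratocan) and Epyc (epiphycan). Both lay below the minimum mean, Kera at 0.422 RPKM in Nfib-null glands and 0.0974 RPKM in wild-type glands, and Epyc at 1.05 and 0.124 RPKM. Btg1 (0.89), the nearest gene before Dcn that has a value, pointed the same way as Dcn and Lum, within 2-fold. On chromosome 13, Ecm2, a related matrix gene, is followed by Aspn, Omd and Ogn, whose differences were 0.53, 0.18, 0.62 and 1.40 in that order. Cenpp (−0.15) is listed just before that cluster, with Ippk (−0.96) before Cenpp, and Nol8 (−0.65) is listed just after the cluster. All of these pointed the other way, within 2-fold. Optc (opticin), beside Prelp and Fmod on chromosome 1, stood at 0.778 RPKM in Nfib-null glands and 0.634 RPKM in wild-type glands. The genes on either side of these, Atp2b4 (0.48, within 2-fold) and Btg2 (1.17, called higher), pointed the same way as Prelp and Fmod. Bgn, on the X chromosome, stands alone, between Haus7 (−0.41) and Atp2b3, which was below the minimum mean.

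The chromosome 13 genes lie inside Cenpp, a centromere protein gene read from the opposite strand, and no source states whether strand was used in counting. In the GENCODE M21 annotation Cenpp shares 7 exon bases with Aspn and 0 with Omd and Ogn. Cenpp stood at 1.68 RPKM in Nfib-null glands and 1.503 RPKM in wild-type glands, against 1.98 and 0.662 RPKM for Omd, so that in wild-type glands it lay above Omd, and in both columns far below Ogn. Prelp shares 350 of its 3615 exon bases with Gm15851, a gene on the opposite strand with no row in the table, and reads of those bases cannot be assigned to a strand here.

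Promoter sequence was available for 6 of the 8 genes from RefSeq (GRCm38.p6, a later build than the mm9 named for the values). Dcn and Lum had none. The 250 bases before the start are shown for Prelp, the gene of largest difference among the 8, and for Ogn and Aspn, genes of the same cluster with a large and a small difference. Capitals mark the NFI word TTGGC, read on either strand, so that GCCAA is its match on the other. Prelp lies at chr1:133921402-133921651 on the minus strand, Ogn at chr13:49607765-49608014 on the plus strand and Aspn at chr13:49544193-49544442 on the plus strand.
Prelp: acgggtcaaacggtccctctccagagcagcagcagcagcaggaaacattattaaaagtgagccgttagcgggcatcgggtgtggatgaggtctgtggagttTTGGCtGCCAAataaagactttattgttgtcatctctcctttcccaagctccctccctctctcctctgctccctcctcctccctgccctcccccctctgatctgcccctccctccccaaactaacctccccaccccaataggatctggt
Ogn: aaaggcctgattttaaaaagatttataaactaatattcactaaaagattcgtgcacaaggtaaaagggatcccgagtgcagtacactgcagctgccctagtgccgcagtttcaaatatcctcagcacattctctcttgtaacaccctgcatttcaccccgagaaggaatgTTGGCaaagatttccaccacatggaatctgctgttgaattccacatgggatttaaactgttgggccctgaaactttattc
Aspn: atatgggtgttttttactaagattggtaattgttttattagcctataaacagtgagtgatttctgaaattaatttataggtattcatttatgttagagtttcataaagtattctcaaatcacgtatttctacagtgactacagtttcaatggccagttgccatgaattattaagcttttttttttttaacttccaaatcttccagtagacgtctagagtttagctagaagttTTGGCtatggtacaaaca

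In Prelp 2 NFI words face each other with 1 base between them, starting 149 and 143 bases before the start. The full NFI palindrome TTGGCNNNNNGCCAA has 5 bases between its arms and was in 0 of the 6 promoters, against 0.0365% of 32851 promoters of the same length. Ogn and Aspn held 1 NFI word each, as did Omd, while Fmod held 2 and Bgn 0. The NFI word was thus in 5 of 6 proteoglycan promoters and in 41.5% of all promoters, where so short a word is common. The STAT5 word TTCNNNGAA, which reads the same on both strands, was in 0 of the 6 and in 7.02% of all. The word TATAAA, on either strand, was in the Ogn and Aspn promoters and in 12.4% of all, and no position of it was compared with the start. Among the 6, the NFI word stood in promoters of genes called higher (Prelp and Ogn) and of genes within 2-fold (Fmod, Omd and Aspn). Dcn and Lum, also called higher, could not be looked at. A matched word is a description of the letters in this window and does not show binding.

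The partners of these proteoglycans were examined next. Of 20 genes kept for fibril collagens and the proteins that assemble with them, 13 were called higher and 0 lower. The shares over all genes kept were 6.95% higher and 5.97% lower. The median of the 20 was 1.06. With scaling to luminal markers 1 of the 20 was called higher, and with scaling to fibroblast markers 0 were, with 0 lower in both. Of all 12511 genes kept, luminal scaling called 177 higher and 3975 lower, and fibroblast scaling 42 and 8589. Fn1 (fibronectin) stood at 60.7 RPKM in Nfib-null glands and 11.1 RPKM in wild-type glands (1.96), and Dpt (dermatopontin, which binds decorin) at 147 and 32.6 RPKM (1.74). Tnxb (tenascin X) stood at 21.1 RPKM in Nfib-null glands and 4.41 RPKM in wild-type glands (1.66). Sparc, a collagen-binding glycoprotein and the most abundant of the list, stood at 817 RPKM in Nfib-null glands and 334 RPKM in wild-type glands (0.88). Lox, Dpt and 3 collagen genes of this list are also among the fibroblast markers.

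Set against Col1a1, the collagen I gene, chosen as a yardstick after its values had been seen, the family split. Dcn had 1.89 times the RPKM of Col1a1 in Nfib-null glands and 1.85 times in wild-type glands. For Bgn the ratio to Col1a1 was 0.484 in Nfib-null glands and 0.877 in wild-type glands, and for Aspn 0.0447 and 0.114. For Prelp it was 0.508 in Nfib-null glands and 0.400 in wild-type glands. The remaining genes lay between Aspn and Dcn in this respect. In Nfib-null and wild-type glands the ratio was 0.183 and 0.195 for Ogn, and 0.423 and 0.483 for Lum. For Omd it was 0.00854 and 0.0111, and for Fmod 0.0711 and 0.120. With other collagen genes, picked in the same way, the decorin ratio was less even: to Col3a1 it was 1.01 in Nfib-null glands and 0.791 in wild-type glands, and to Col6a1 4.68 and 3.22.

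Genes that build the sugar chains were mostly within 2-fold, as were most of all genes kept, of which 6.95% were called higher and 5.97% lower. Of 19 genes kept for the linkage region and for chondroitin and dermatan sulphate, 0 were called higher and 0 lower, with a median of 0.20. The members farthest from 0 were Chst12, a chondroitin 4-sulphotransferase (20.3 RPKM in Nfib-null glands and 7.24 RPKM in wild-type glands, 0.99), and Xylt1, a xylosyltransferase that starts the chain (0.691 and 1.83 RPKM, −0.96). Of 5 genes kept for keratan sulphate, 1 was called higher, with a median of 0.53. Chst1, the sulphotransferase that acts on the galactose of keratan sulphate, stood at 37.1 RPKM in Nfib-null glands and 8.13 RPKM in wild-type glands (1.68). With values as deposited 3 of the 19 and 1 of the 5 were called higher, against 14.4% of all genes kept.

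Core proteins of other proteoglycans were also mostly within 2-fold. Of 16 kept, 2 were called higher and 0 lower, against 6.95% and 5.97% of all genes kept. The median of the 16 was 0.30. With values as deposited 6 of the 16 were called higher, against 14.4% of all genes kept. With scaling to fibroblast markers 0 were called higher and 9 lower, against 0.336% and 68.7%. Gpc3, a cell-surface glypican, stood at 21.4 RPKM in Nfib-null glands and 4.73 RPKM in wild-type glands (1.60), and Gpc6 at 4.96 and 1.40 RPKM (1.02). Sdc4, a syndecan and the most abundant of this list, stood at 85.0 RPKM in Nfib-null glands and 88.7 RPKM in wild-type glands (−0.47).

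The list of proteases that trim propeptides or cut core proteins also holds the enhancers Pcolce and Pcolce2. Of 10 genes kept, 6 were called higher and 1 lower, against 6.95% and 5.97% of all genes kept. The median of the 10 was 1.07, and both enhancers were among the 6. With scaling to luminal markers 0 were called higher and 1 lower, and with scaling to fibroblast markers 0 and 3. Those scalings called 177 (luminal) and 42 (fibroblast) of all 12511 genes kept higher, and 3975 and 8589 lower. Mmp2, a gelatinase, stood at 84.5 RPKM in Nfib-null glands and 23.9 RPKM in wild-type glands (1.38), and Pcolce, the enhancer of procollagen C-proteinase, at 47.4 and 13.7 RPKM (1.33). The lower one was Adamts5, an aggrecanase that also cuts versican and biglycan, at 13.6 RPKM in Nfib-null glands and 41.6 RPKM in wild-type glands (−1.93). Mmp13 (−0.47) and Adamts4 (−0.25), picked out with their values in view, were also below 0, within 2-fold. Bmp1, which removes the propeptides of biglycan and osteoglycin and was picked out with its value in view, stood at 20.4 RPKM in Nfib-null glands and 6.53 RPKM in wild-type glands (1.13).

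Among growth factors, receptors and complement genes whose products bind these proteins, 7 of 18 genes kept were called higher and 1 lower. The shares over all genes kept were 6.95% higher and 5.97% lower. The median of the 18 was 0.61. Of the 7, C1qa, C1qb and C1qc are complement genes that are also macrophage markers. With scaling to luminal markers 1 was called higher and 2 lower, and with scaling to fibroblast markers 0 and 6. Over all 12511 genes kept the same scalings gave 177 higher and 3975 lower (luminal) and 42 and 8589 (fibroblast). Tgfb3, a transforming growth factor beta, stood at 135 RPKM in Nfib-null glands and 21.5 RPKM in wild-type glands (2.19). Ctgf, the connective tissue growth factor gene, stood at 38.2 RPKM in Nfib-null glands and 8.53 RPKM in wild-type glands (1.65), and C1qc at 95.3 and 26.1 RPKM (1.43). The receptor genes for soluble biglycan, picked out after their values had been seen, did not share a direction. Tlr2 was called lower, at 17.5 RPKM in Nfib-null glands and 34.2 RPKM in wild-type glands (−1.32, but −0.93 and within 2-fold with values as deposited). Tlr4 stood at 11.6 and 8.55 RPKM (0.03). P2rx7 stood at 9.45 and 3.90 RPKM (0.74, but 1.09 and beyond 2-fold with values as deposited). Met, a receptor that decorin binds, picked out in the same way, stood at 19.0 RPKM in Nfib-null glands and 5.86 RPKM in wild-type glands (1.17).

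**Figure D5:**
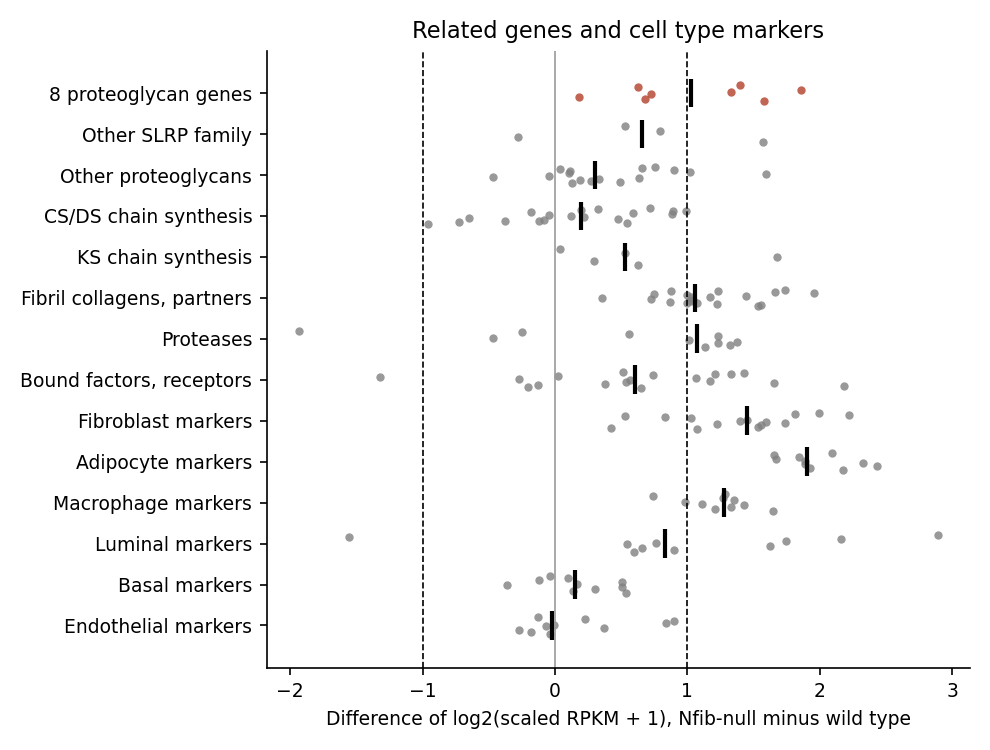
Log2 difference between Nfib-null and wild-type glands (scaled RPKM + 1; horizontal), for each gene kept (points) of the 8 proteoglycan genes (red), 7 lists of related genes and 6 lists of cell type markers (rows), with the median of each list as a black bar and dashed lines at 2-fold. CS/DS and KS stand for chondroitin or dermatan sulphate and keratan sulphate; the proteoglycan, fibril collagen, protease, fibroblast, adipocyte and macrophage medians lie beyond 1 and that of CS/DS chain synthesis at 0.20.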

How the data were processed

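Poly(A) RNA of whole mammary gland was sequenced in 3 Nfib-null and 2 wild-type libraries with a TruSeq kit on a HiSeq instrument, per the labels' protocols. Per the submitters' processing notes, CASAVA and TopHat were used, with the build mm9; counting tool, annotation and denominator: not given in the sources used here. The deposited values are RPKM, per the file headers, in 2 columns, each a mean over a group. Of 12205 Nfib-null values with 10 decimals, 84.4% ended in a repeating decimal, as means of 3 do. Wap and Glycam1 tie exactly in the wild-type column at 102755 RPKM, and no source says how such a tie arose.

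The 12511 genes whose library-weighted mean reached 1 RPKM were kept, and 10098 were removed. Columns were divided by median-ratio factors, and differences taken of log2(RPKM + 1) with pandas 2.3.3 and numpy 2.4.6. The planned use of limma, the omission of each library and the replicate block needed values per library and were not run, so no p-value, SD or standard error is given. The scaling and the calls were tested on simulated data with known factors. Steps between low values, with GENCODE M21 lengths of single-transcript genes, gave about 27200000 and 32800000 reads for 2 Nfib-null libraries, no clear step for the remaining one, and about 14900000 and 17700000 reads for those of the wild type.

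The 8 genes and the 20 lists (245 entries, 234 of 235 distinct genes found) were chosen with earlier results of these data known. Genes were named by rule: all members, the 3 genes of largest absolute difference and the most abundant gene of each list, and genomic neighbours. Not every gene that met the rule is printed, above all among the cell type markers. Most genes named outside the rule are marked as picked out. Likeness of pattern was not ranked, since 2 columns give a single ratio per gene.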

Additional observations from a re-analysis of the deposited data

How the results depend on the processing

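No paired analysis was possible because the columns are group means and carry no replicate numbers; leaving out single libraries was not possible for the same reason. The count of proteoglycan genes beyond 2-fold was 4 with median-ratio scaling and between 4 and 6 with values as deposited, quantile normalization, equal sums, either other pseudocount (0.1 or 5), no filter or a filter at 5 RPKM. It was 1 with scaling to luminal markers and 1, in the lower direction, with scaling to fibroblast markers, 7 at a limit of 1.5-fold and 0 at 4-fold, where 17.1% and 0.727% of all genes kept were called higher. The median of 1.03 was 0.34 with scaling to luminal markers, −0.20 with scaling to fibroblast markers and 0.92 with a pseudocount of 5. Scaling to fibroblast markers also turned Lum to −0.19, Ogn to −0.086 and Aspn to −1.20. These scalings shift every gene, the median of all genes kept by −0.72 (luminal) and −1.33 (fibroblast), against 0.35 with values as deposited and 0.15 with equal sums; calls of all genes split 177 higher to 3975 lower, 42 to 8589, 1800 to 369 and 1177 to 547 in that order, against 869 to 747 with median-ratio scaling. Of the single genes, Dcn (0.74), Lum (0.51) and Ogn (0.59) came within 2-fold with scaling to luminal markers, and Dcn (0.03) and Prelp (0.34) with scaling to fibroblast markers. Bgn (1.09) and Fmod (1.10) passed 2-fold with values as deposited, and Omd (1.07) with a pseudocount of 0.1. The low value of Omd, 0.662 RPKM in the wild-type column, limits what can be said of it.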
